A study of Drosophila melanogaster with 4 samples.

Results

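Arrays of closely spaced H3 clusters are stretches of the genome in which several regions of H3 enrichment follow one another at short distance. Clusters of the series-wide list on the chromosome arms 2L, 2R, 3L, 3R, 4 and X were sorted by start, neighbours were joined where 1000 bp or less lay between them, and runs of 3 or more clusters were kept. This gave 860 runs with 2964 clusters, out of 17822 clusters on the 6 arms and 18424 on all sequences. The runs were chosen from the positions in that list, so their number, spacing, length and score are descriptions, and no test was made on them.

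Histone H3 is a core protein of the nucleosome, the unit in which DNA is wrapped for packing in the nucleus. Antibodies to H3 regardless of its modification pull down DNA that carries nucleosomes, and such maps commonly serve as a reference for maps of modified histones. In flies, active promoters and enhancers are known to be depleted of nucleosomes, whereas gene bodies and silent chromatin carry regular nucleosome rows.

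The material was wild-type Oregon-R (Oregon-R-modENCODE) embryos of *Drosophila melanogaster* at 14 to 16 h of development, whole embryos in which all cell types are mixed. There were 2 ChIP libraries, made with 1 antibody to H3 (H3 antibody3), and 2 input libraries, each used for the ChIP replicate of its number, and no other genotype or treatment. By the labels' protocols, fixation was in 1.8% formaldehyde and immunoprecipitation ran for 15 h. Each of the 3 cluster lists (series-wide, replicate 1 and replicate 2) gives a start, an end and the authors' score. The score is taken as log2, which is inferred from its values. Read depth is unknown, the labels do not state that the replicates are separate embryo collections, and the series-wide list is by its name a set of the same replicates, so their overlap with it is built in.

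Most runs were short. Exactly 3 clusters made up 589 of the 860 runs, 4 clusters made up 198 and 5 clusters made up 50, and 23 runs held 6 or more. The largest run held 12 clusters. Runs contained 16.6% of the clusters on the 6 arms (exact 95% binomial interval 16.1 to 17.2), another 25.4% stood in pairs and 58.0% stood alone. The median run spanned 6431 bp (quartiles 5475 and 8171 bp, range 3557 to 27141 bp). All runs together spanned 6.16 Mb, or 5.11% of the 120.4 Mb of the arms, and clusters covered 85.0% of that span.

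Within runs the clusters lay close, with a median gap of 405 bp (1 to 997 bp), while the median over all 17816 gaps on the arms was 2774 bp. Of all gaps, 4366 (24.5%) were 1000 bp or less, and 2104 of these lay in runs. The centres of neighbouring clusters in a run stood a median of 2090 bp apart (quartiles 1749 and 2515 bp). Gap sizes fell off smoothly through the joining distance, from 1056 gaps of up to 200 bp to 644 gaps over 800 and up to 1000 bp. Just inside the limit were 318 gaps of 901 to 1000 bp, and just outside it 308 gaps of 1001 to 1100 bp. The clusters after these gaps had median lengths of 1515 and 1458 bp and median scores of 0.40 and 0.41, so clusters on either side of the limit were alike. The closest pair of runs illustrates the limit: X 18623916-18629764 with 3 clusters and X 18630778-18637646 with 4 were separated by 1013 bp.

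Runs were about as many as the gaps of each arm would give in any order, and the longest runs were more. The mean number of runs over all possible orders of each arm's own gaps, worked out exactly, was 813.1, which puts the 860 runs at 1.06 times that mean. A Poisson interval of the count, for counting error only, reaches from 0.988 to 1.13. For runs of 4 or more clusters the ratio was 1.32 (1.17 to 1.49), and for 6 or more it was 1.70 (1.08 to 2.55), that is 23 runs beside a mean of 13.5. With gaps reordered only within windows of 1 Mb, the ratios were 1.05 (0.979 to 1.12), 1.24 (1.10 to 1.40) and 1.33 (0.846 to 2.00). The ratio for 3 or more clusters turned with the joining distance, being 1.18 at 500 bp and 0.975 at 2000 bp.

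The same pattern appears gap by gap. A gap of 1000 bp or less was followed by another in 28.5% of 4365 cases, whereas 23.2% of longer gaps were followed by a short one. On every arm with runs the short gap was more often followed by a short gap than the longer gap was. The shares were 24.5% and 21.3% on 2L, 32.3% and 27.1% on 2R, 26.9% and 23.1% on 3L, 30.6% and 25.5% on 3R, and 24.1% and 17.8% on X. The separation was widest on X, where runs were also 1.23 times the mean over orders (counting interval 0.996 to 1.50), beside 0.976 to 1.08 on the autosome arms.

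**Figure D1:**
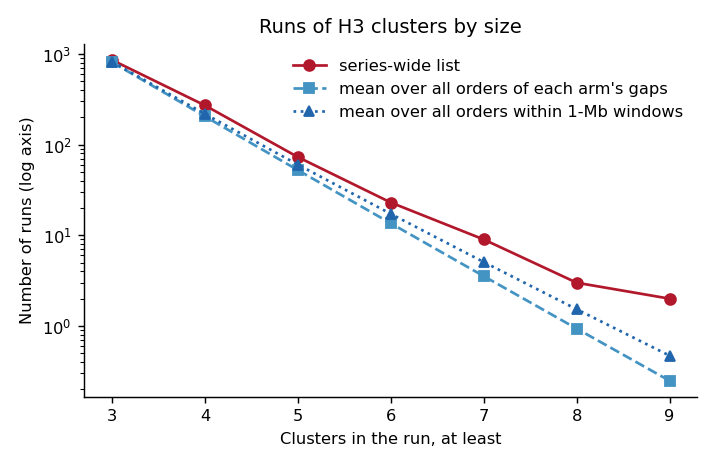
Number of runs (log axis) against the least number of clusters in the run, for the series-wide list and for the mean over all orders of the gaps within each arm or within 1-Mb windows. The lines start together, at 860 runs and means of 813.1 and 820.9, and at 7 or more clusters the list holds 9 runs beside means of 3.54 and 5.07.

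Runs were densest on the right arms of the autosomes and sparsest on X and chromosome 4. Arm 2R carried 222 runs (10.5 per Mb) and 3R carried 262 (9.39 per Mb). Arm 3L followed with 151 runs (6.15 per Mb), then 2L with 127 (5.52 per Mb) and X with 98 (4.37 per Mb). The order by share of clusters was the same: 21.9% of clusters on 2R lay in runs (exact 95% interval 20.5 to 23.3), 19.3% on 3R (18.1 to 20.4), 15.0% on 3L (13.8 to 16.2), 13.2% on 2L (12.0 to 14.4) and 11.7% on X (10.5 to 13.0). The intervals of 3L and 2L overlap, as do those of 2L and X. Chromosome 4, a small and largely heterochromatic chromosome, held 0 runs. With 0 of its 17 clusters in runs, a share of up to 17.6% is allowed by the limit of 3 counts, and up to 19.5% by the exact interval, so a lower share there was not detectable.

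Arms rich in runs were also those with many clusters per Mb. Cluster density ran in the order 3R (170.3 per Mb), 2R (166.4), 3L (144.2), 2L (141.5) and X (122.2). Runs on 2R were thus more frequent than on 3R although clusters were slightly fewer. The median gap was 2331 bp on 2R and 2503 bp on 3R, and 28.6% and 26.9% of their gaps were 1000 bp or less. Large runs of 6 or more clusters numbered 10 on 3R, 6 on 3L, 5 on 2R, 2 on 2L and 0 on X, whose largest run held 5.

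**Figure D2:**
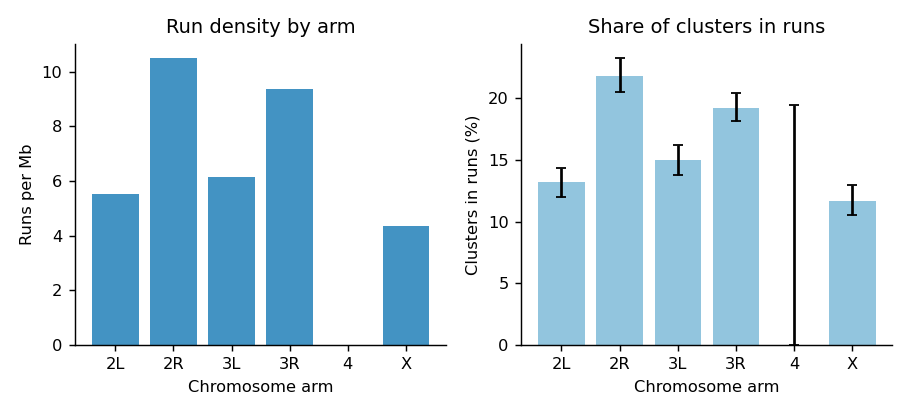
Runs per Mb (left) and percent of an arm's clusters that lie in runs (right, bars with exact 95% binomial intervals) for the 6 arms in the series-wide list. Arm 2R stands highest in both panels, at 10.5 runs per Mb and 21.9%, X stands lowest of the arms with runs, at 4.37 per Mb and 11.7%, and chromosome 4 has none.

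Along each arm, runs were more frequent next to the telomere and less frequent next to the centromere than in the rest. The 2 Mb next to the telomere of 2L, 2R, 3L, 3R and X held 133 runs (13.3 per Mb), the 2 Mb next to the centromere held 21 (2.10 per Mb), and the rest of these arms held 706 (7.13 per Mb). In runs lay 25.2% of the clusters of the telomere ends, 9.50% of those of the centromere ends and 15.9% of those elsewhere. All 5 arms had this order, but the centromere ends differed. They had 0.0951 times the runs per Mb of the rest of the arm on 2L, 0.138 on 2R, 0.249 on X and 0.255 on 3L. On 3R the value was 0.637, and 12 of the 21 runs lay there (6.0 per Mb). Relative to the rest of its arm, the telomere end had 2.74 times as many runs per Mb on X, 2.47 on 2L, 2.29 on 3L, 1.52 on 2R and 1.33 on 3R. Clusters as a whole were less uneven there, at 1.18 to 1.33 times the rest.

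The replicate lists showed the same unevenness in their clusters. In replicate 1 the telomere ends carried 47.7 clusters per Mb and the rest 30.7, a ratio of 1.55. In replicate 2 the values were 29.0 and 17.9, a ratio of 1.62, which gives a mean of 1.59 ± 0.051 (SD, n = 2). Both replicates lay above 1 on each of the 5 arms, with mean ratios from 1.39 ± 0.11 on 3R to 2.20 ± 0.034 on X (SD, n = 2). The order of gaps within the telomere ends added little: their own gaps in any order give a mean of 129.1 runs, so the 133 observed were 1.03 times that mean. The short gaps themselves were more frequent, at 31.7% of gaps in telomere ends, 24.0% in the rest and 17.6% in centromere ends. How much of each end was mappable was not measured, and its part in the result was not tested.

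At the scale of 1 Mb, runs largely followed the number of clusters. Over 117 complete windows the median was 6 runs, and 32 windows held 50% or more of the runs in windows. The number of runs rose with the number of series-wide clusters (Spearman's rho = 0.890 across windows), with clusters of replicate 1 (0.857) and with those of replicate 2 (0.787). These are descriptions, since all counts share the same libraries and regional read coverage. Within arms the rho with series-wide clusters was 0.762 on X (22 windows), 0.776 on 3L (24 windows), 0.835 on 2R (21 windows), 0.897 on 3R (27 windows) and 0.909 on 2L (23 windows).

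The most runs in a window were 20, reached once on 2R and once on 3R. The latter window was 3R 25000001-26000000, whose 20 runs with 80 clusters spanned 174.7 kb. Replicate 1 had 59 clusters in that window and replicate 2 had 31. Of its 20 runs, 15 contained a cluster found in replicate 1, 8 a cluster found in replicate 2, and 7 met both conditions. Of all 860 runs, 57.9%, 37.3% and 24.0% met these conditions in turn. Toward the centromere of 3L, the window 22000001-23000000 had 14 runs with 58 clusters over 145.8 kb. It lies only partly within the 2 Mb next to the centromere, which held 3 runs on 3L. The next window toward the centromere, 3L 23000001-24000000, had 0 runs among 35 clusters. On X, the window 3000001-4000000 had 0 runs among 89 clusters, next to X 2000001-3000000 with 13 runs among 171 clusters and X 1000001-2000000 with 14 among 197. The replicates had 15 and 11 clusters in this window without runs, 32 and 27 in the former neighbour, and 58 and 38 in the latter. Few runs at such numbers of clusters were seen in some other windows. Thus 2L 15000001-16000000 had 0 among 112, 2L 17000001-18000000 had 1 among 92 and X 16000001-17000000 had 3 among 94. It was not so everywhere, as 3R 1-1000000 had 6 runs among 113 clusters.

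**Figure D3:**
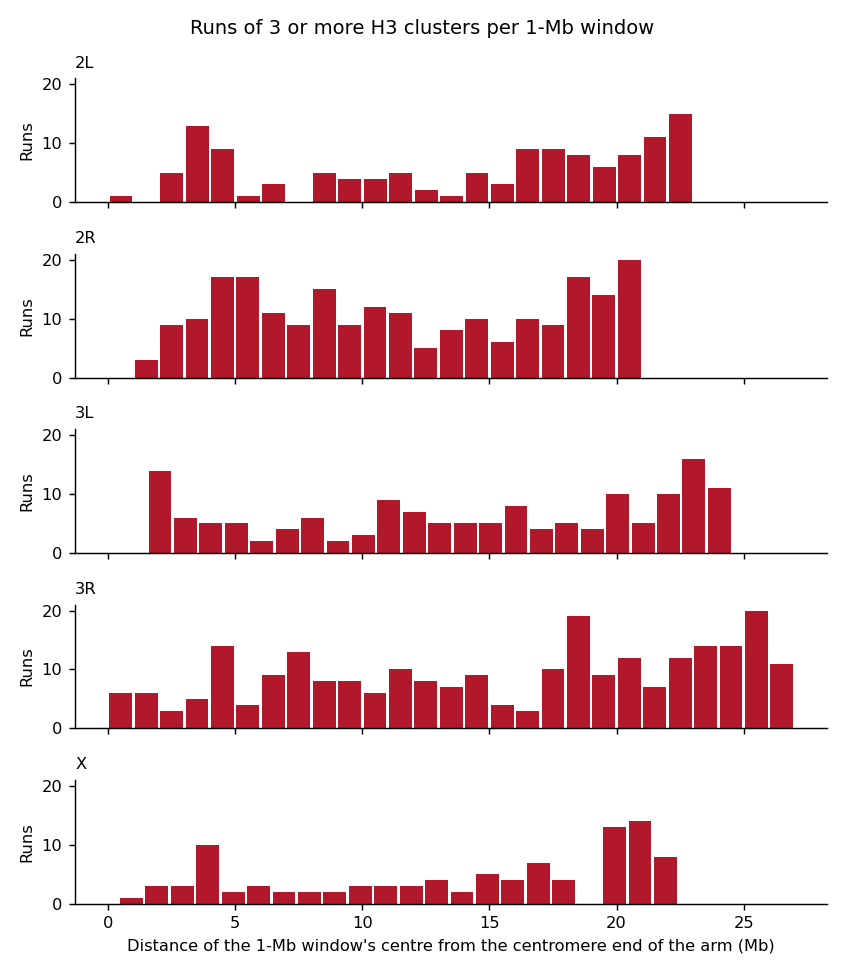
Number of runs in each complete 1-Mb window (bars) against the distance of the window's centre from the centromere end of the arm, for 2L, 2R, 3L, 3R and X. On every arm the complete window nearest the telomere holds more than the median of 6 runs, and bars reach up to 20. On 3R that window holds 11 runs, fewer than the 20 of the window before it. In all, 5 windows have 0 runs, among them 1 on X beside a window with 13.

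Individual arrays are given next, with their support in each replicate. The largest of all lay on 2R, with 12 clusters over 27141 bp, a mean score of 0.42 and clusters of 1001 to 6501 bp. Of its clusters, 3 overlapped replicate 1 and 2 overlapped replicate 2. The next was 3L 13610358-13634970, with 9 clusters over 24613 bp and a mean score of 0.46. Only 1 of its clusters overlapped replicate 1 and 3 overlapped replicate 2. The largest on 3R was 25461168-25476626, with 8 clusters over 15459 bp and a mean score of 0.41, where 3 clusters overlapped replicate 1 and 0 overlapped replicate 2. In none of these 3 arrays did 1 cluster overlap both replicates, as was so for 85.9% of all runs.

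The array with the largest number of clusters found in both replicates was 3L 22304032-22322894. It had 7 clusters over 18863 bp, of which 4 overlapped replicate 1, 4 overlapped replicate 2 and 3 overlapped both. The highest replicate scores within it were 0.60 in replicate 1 and 0.77 in replicate 2. It lay in the 3L window with 14 runs named above, and 2 more named arrays followed it there. The nearer was 3L 22328194-22347506, whose 4 clusters included the longest of any run (12137 bp), and 2 of the 4 overlapped each replicate. The farther was 3L 22402864-22418824, with 7 clusters, of which 1 overlapped each replicate. On 3R, 2 further arrays of 7 clusters lay in the window with 20 runs, at 25521204-25540046 and 25910106-25923944. In the former 2 clusters overlapped each replicate, in the latter 1.

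In other large arrays the number of clusters found in the replicates varied, to be read beside the 19.9% and 11.7% of all clusters on the arms that overlapped replicates 1 and 2. A further array of 7 clusters on 2R had 2 that overlapped replicate 1 and 0 that overlapped replicate 2. At 3R 19393128-19406670, 7 clusters stood at gaps of 25 to 567 bp with scores of 0.38 to 0.44, and the same cluster overlapped both replicates. At 3L 8636896-8652478, 4 of 6 clusters overlapped replicate 1 and 1 overlapped replicate 2. The array with most clusters on 2L was 3508522-3522494, with 6 clusters, 2 of which overlapped each replicate and 1 overlapped both. The largest on X was 1210250-1225242, with 5 clusters and a mean score of 0.48, where 3 clusters overlapped replicate 1 and 0 overlapped replicate 2. At 3R 20822480-20845988, 5 long clusters of 2397 to 7203 bp filled 91.9% of a span of 23509 bp.

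Among arrays with 2 clusters found in both replicates, 2L 903216-921626 held 4 clusters of 2655 to 6701 bp, of which 2 overlapped replicate 1 and 3 overlapped replicate 2. On the same arm, 2L 6182360-6197698 held 3 clusters of 3811 to 5871 bp, and all 3 overlapped replicate 2 while 2 overlapped replicate 1. On X, 1586188-1597488 held 4 clusters with scores of 0.47 to 0.57, 2 of them in both replicates, with replicate scores of up to 0.70 and 0.87. Of the 5 arrays of this kind, 1 more lay on 2R, with 4 clusters. The last was 3L 5937810-5944562, where 2 of 3 clusters overlapped replicate 1 and all 3 overlapped replicate 2. On 2L all 7 clusters of these arrays were longer than the median cluster in runs.

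**Figure D4:**
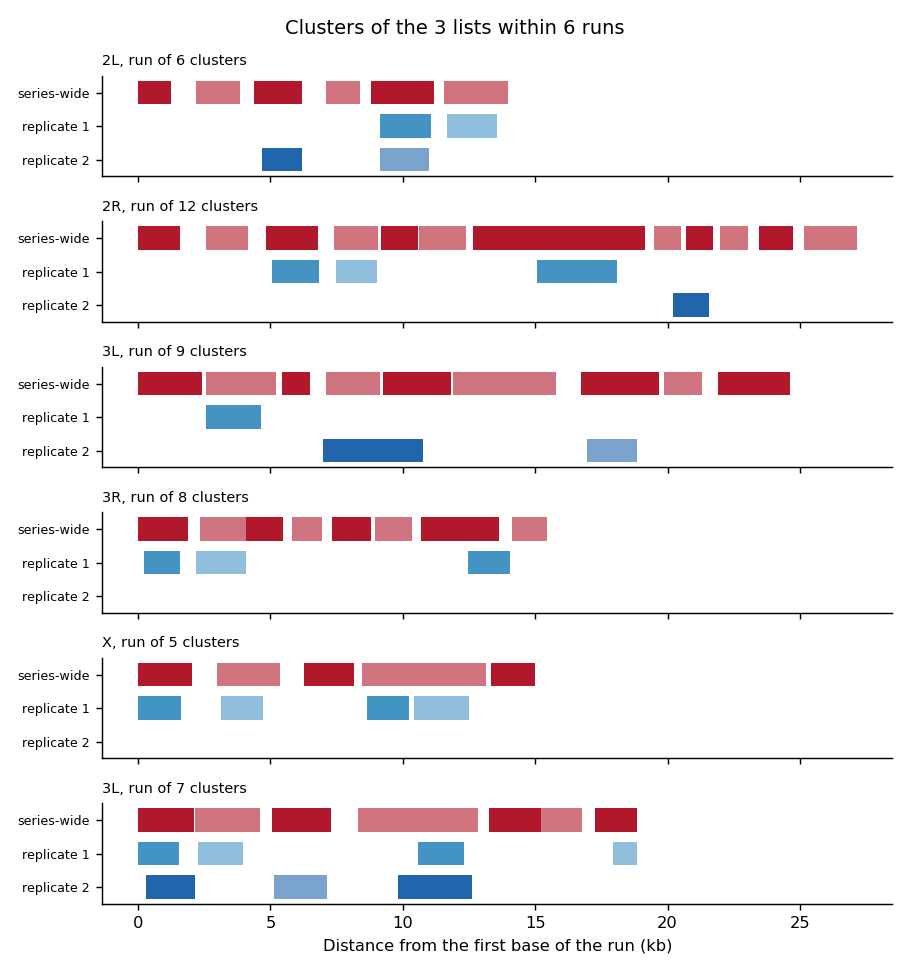
Clusters of the series-wide list, replicate 1 and replicate 2 (bars, alternately shaded) within 6 runs, against distance from the first base of the run in kb: the run with most clusters on each arm, and the 3L run of 7 clusters with most clusters in both replicates. Replicate clusters fill only parts of each run, and on 3R and X the runs drawn have none from replicate 2.

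Scores of clusters in runs hardly differed from those elsewhere. The median score was 0.41 in runs and 0.41 outside them, a difference of -0.0011, beside an interquartile range of 0.076 over all clusters on the arms. The sign of so small a difference was not steady: it was 0.0070 on X, 0.0033 on 3R, 0.00073 on 2L, -0.00013 on 3L and -0.00097 on 2R. On X the medians were 0.48 in runs and 0.47 outside, and on the other arms with runs they lay between 0.40 and 0.41. Scores within a run ranged over a median of 0.090, so members of an array were not of equal height. In the replicates, clusters that touched a run scored higher in the median than those that did not, by 0.0097 in replicate 1 (0.56 and 0.55) and 0.012 in replicate 2 (0.70 and 0.69).

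The runs with the highest mean score owed it to 1 short cluster each on the autosomes. At 2L 17199706-17204780 the mean of 1.01 came from a cluster of 1001 bp with a score of 2.17, beside 0.46 and 0.40 for the other clusters. At 2L 22711644-22718132 the mean of 0.88 came from a cluster of the same length and score, beside values of 0.43 to 0.49. A run on 2R reached 0.77 and 3L 11564534-11569112 reached 0.71, each with 1 cluster over 1 (1.47 and 1.42). None of these 4 high clusters overlapped a replicate. They were the only ones in runs with a score over 1, of 51 on the 6 arms, and none was longer than 1055 bp. Overlap was rare at that length: of clusters of 1001 to 1123 bp in runs, 3.32% overlapped replicate 1 and 3.32% replicate 2. Next in mean score, X 20244954-20250964, had scores of 0.51, 0.58 and 0.77, and its highest cluster overlapped a replicate 2 cluster that scored 0.97.

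Clusters in runs were longer than others. Their median length was 1540 bp, beside 1445 bp outside runs, 1501 bp in pairs and 1419 bp for clusters alone. The difference between clusters in and outside runs was 122 bp on 2L, 120 bp on X, 107 bp on 3L, 74.0 bp on 3R and 60.0 bp on 2R. Broad clusters of 3000 bp or more made up 7.42% of clusters in runs and 4.79% of those outside, and 220 of the 931 broad clusters lay in runs.

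Recurrence in the replicate lists was somewhat more frequent for clusters in runs. Of the 2964 clusters, 674 overlapped a replicate 1 cluster by at least 1 bp (22.7%, exact 95% interval 21.2 to 24.3), beside 19.9% of all clusters on the 6 arms and 19.3% of those outside runs. Overlap with replicate 2 was found for 412 (13.9%, interval 12.7 to 15.2), beside 11.7% of all clusters and 11.2% outside runs. Clusters in pairs stood between, at 20.8% in replicate 1 and 12.9% in replicate 2 (interval 11.9 to 13.9). Clusters alone stood at 18.7% and 10.5%. The difference from clusters outside runs was 3.40 and 2.69 percentage points in replicates 1 and 2, a mean of 3.05 ± 0.50 (SD, n = 2). Both replicates recurred in 128 clusters of runs (4.32%, beside 3.09% of all), and neither in 2006 (67.7%, beside 71.5% of all).

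The longer clusters of runs accompany most of this difference. Clusters outside runs, weighted to the lengths found in runs by 5 length classes, overlapped replicate 1 in 21.9% and replicate 2 in 12.7%. That leaves differences of 0.821 and 1.19 percentage points (mean 1.00 ± 0.26, SD, n = 2), within the counting intervals given above. In the longest of the 5 classes (1981 to 12137 bp), 53.6% of those in runs overlapped replicate 1 (49.9 to 57.2), beside 47.5% outside runs (45.6 to 49.3). In replicate 2 the same class stood at 28.3% in runs and 28.5% outside. In the 3 classes between 1125 and 1979 bp, clusters in runs overlapped replicate 1 less often than others by 1.04 to 1.97 percentage points, and replicate 2 more often by 0.581 to 2.69. The replicates thus did not share a direction within length classes, except in the shortest, where both were higher in runs (3.32% beside 1.94% and 1.98% outside).

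**Figure D5:**
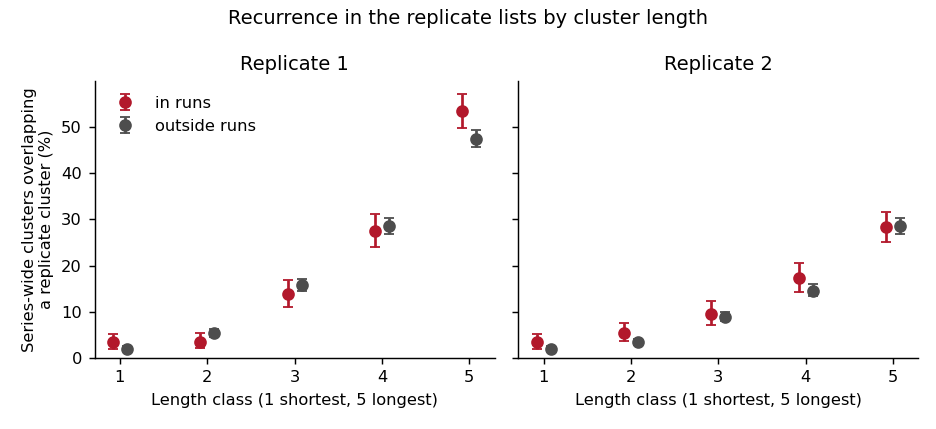
Percent of series-wide clusters that overlap a cluster of replicate 1 (left) or replicate 2 (right), against length class (5 classes of nearly equal number), for clusters in runs and outside them (points with exact 95% binomial intervals). Overlap climbs with length in both panels, to 53.6% and 28.3% for the longest clusters in runs, and the points in and outside runs lie close together in most classes.

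Inner clusters of a run recurred more often than those at its ends. Of 1244 inner clusters 25.6% overlapped replicate 1 (exact 95% interval 23.2 to 28.2), beside 20.6% of 1720 end clusters (18.7 to 22.6). In replicate 2 the shares were 15.0% (13.1 to 17.1) and 13.1% (11.5 to 14.8), whose intervals overlap. The mean difference was 3.48 ± 2.16 percentage points (SD, n = 2). Length was alike at both places, with medians of 1534 and 1541 bp, and so was the score, at 0.42 and 0.41. By size of the run, the share of clusters found in replicate 1 was 22.1% in runs of 3, 22.7% in runs of 4, 25.6% in runs of 5 and 25.8% in runs of 6 or more (exact 95% interval 19.1 to 33.4, 155 clusters). In replicate 2 the shares were 13.5%, 14.8%, 11.6% and 18.1%. Runs of 6 or more thus had the highest share in both replicates, on few clusters. Their clusters were also the longest, with median lengths of 1519, 1543, 1566 and 1693 bp in the same order of run size. The part of length in these shares was not tested.

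Counted by run, recurrence in replicate 1 was what the share per cluster gives. In replicate 1, 362 of the 860 runs had no overlapping cluster, 352 had 1, 119 had 2 and 27 had 3 or more. In replicate 2, 539 runs had none, 244 had 1, 64 had 2 and 13 had 3 or more. Every cluster of the run was overlapped in 6 runs by replicate 1 and in 5 by replicate 2. If the 22.7% of clusters found in replicate 1 were spread over runs without regard to their neighbours, 360.2 runs would have none and 7.49 every cluster. For the 13.9% found in replicate 2 these numbers are 517.0 and 1.66, somewhat fewer than the 539 and 5 counted. Counting overlap with either replicate, 24 runs (2.79%) had every cluster overlapped by one or the other, and 247 (28.7%) had none. At least 1 cluster overlapped both replicates in 121 runs (14.1%), and 206 runs (24.0%) had a cluster overlapped by each replicate, the same or another.

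Replicate clusters seldom joined neighbouring clusters into one, in arrays as in pairs. Of the 2104 gaps inside runs, 19 were bridged by a replicate 1 cluster and 26 by a replicate 2 cluster (0.903% and 1.24%, mean 1.07 ± 0.24, SD, n = 2). For the short gaps of pairs the shares were 1.15% and 0.663% (mean 0.906 ± 0.34, SD, n = 2), so the replicates differed in direction. All but 1 of the bridged gaps inside runs were 500 bp or shorter. Replicate clusters covered 21.5% and 11.8% of the cluster bases of runs and 2.04% and 1.77% of the gap bases between them. Gaps over 1000 bp were covered to 0.275% and 0.287%. Short gaps inside arrays were thus covered more than longer gaps and far less than the members on either side.

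The same joining applied to each replicate's own list gave few arrays. Replicate 1 held 13 runs among its 3645 clusters on the arms, and replicate 2 held 3 among 2147, every one of exactly 3 clusters. In these shorter lists 4.75% and 3.22% of gaps were 1000 bp or less. The mean over all orders of their gaps was 8.01 runs in replicate 1 and 2.11 in replicate 2. None of the 13 runs of replicate 1 touched a run of replicate 2, and 5 of them touched a cluster of replicate 2. None of the 3 runs of replicate 2 touched a cluster of replicate 1. The share of all clusters of one replicate that touch the other is not given here. With only 13 and 3 runs, these numbers do not show whether arrays recur more or less than other clusters. The series-wide arrays were touched by 9 of the 13 and by all 3. They were also touched by 57 of 147 pairs in replicate 1 and 22 of 63 pairs in replicate 2. Of all replicate clusters on the arms, 18.7% and 18.6% touched a series-wide run, and 98.2% and 96.4% touched some series-wide cluster.

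The arrays of replicate 1 fell on 3R (6 runs), 2R and 3L (3 runs each) and 2L (1 run), and those of replicate 2 on 2R (2 runs) and 3L (1 run). Replicate 1 had 2 of its runs in the 3R window with 20 series-wide runs, at 3R 25610051-25615406 and 3R 25819552-25825233, with mean scores of 0.59 and 0.52, and each touched 1 cluster of replicate 2. The highest mean score among them was 0.66, at 3L 1708041-1714707. At 3L 22328350-22335975, the 3 clusters of replicate 1 all lay within the series-wide cluster of 12137 bp. In this place closely spaced clusters of a replicate corresponded to 1 broad cluster of the series-wide list. The run of replicate 2 on 3L, 5636645-5641899, had a mean score of 0.76 and touched 3 clusters of a series-wide run.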

How the data were processed

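Per the labels, H3 ChIP-seq clusters came from 2 ChIP libraries, each with its own input. The submitters' processing notes name Bowtie 0.12.7, and the build is FlyBase release 5, per the file headers. The caller, its threshold and the joining of replicates were not given in the sources used here. The deposited score is taken as log2: in base 2, the antilog of a score minus its list's commonest score was a fraction of integers (denominators to 1000, within 1e-10 relative) for 99.1% to 100% of scores, beside at most 2.05% in base e or 10. That it compares ChIP with input is not stated. Depth is unknown; exact binomial (Clopper-Pearson) and Poisson intervals at 95% cover counting error only.

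Runs, overlaps of at least 1 bp and exact means over gap orders (the mean within 1-Mb windows leaves out runs across a window edge) were computed with Python 3.11.15, numpy 2.4.6, pandas 2.3.3, scipy 1.17.1 and matplotlib 3.10.9, and tested on simulated data. No p-value was computed. Members and rules were chosen with earlier results of these data known. Named runs were the 10 with most clusters, the largest on each arm, the 5 with largest span, the 5 with highest mean score and the 5 with most clusters in both replicates. The windows, ends, length classes and inner clusters were looked at after the data were seen. The genes at hand belong to release 6, so none is named, and positions of runs on 2R are not reported here.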

Additional observations from a re-analysis of the deposited data

How the results depend on the processing

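Of 51 alternatives to 8 results, 12 stayed within the counting interval, 1.5 times the count or, for the score difference, 1 SD between the replicates. A joining distance of 500 bp gave 373 runs, 6.68% of clusters in runs, a ratio to the mean over gap orders of 1.18, a score difference of -0.0029, 15.3% overlap with replicate 2, and 5 and 1 runs in replicates 1 and 2. At 2000 bp these were 1688 runs, 37.2%, a ratio of 0.975 and, in the replicates, 29 and 11 runs. The upper 50% by score, 25.4% of it on X, gave 160 runs, 6.00%, a ratio of 1.19, a score difference of 0.011, and overlaps of 27.1% and 18.3% with replicates 1 and 2. Clusters of at least 1301 bp, the shortest in the replicates, gave 278 runs, 8.27%, a score difference of 0.0029, and overlaps of 34.5% and 19.6%. Runs of 4 or more numbered 271, with 6.72% of clusters and a score difference of 0.0026. Coverage of 50% of the cluster gave overlaps of 19.1% and 10.5%. Each replicate alone gave 3 to 13 runs, 0.419% to 1.07% of clusters, ratios of 1.42 to 1.62 and score differences of -0.0060 to 0.022. Of those chosen after seeing the data, runs of 6 or more gave a ratio of 1.70, and without X the share was 17.5% and the score difference 0.0012. Fewer or more clusters enter by construction; for the ratio and the score difference the cause was not tested. No paired analysis was possible because the input libraries have no list of their own and no result comes from a test.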

Other observations

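Neighbouring members of an array were scarcely more alike in score than other neighbours. The median difference in score between neighbours was 0.049 within runs (2104 pairs), 0.050 across gaps over 1000 and up to 5000 bp (7776 pairs) and 0.052 across gaps over 5000 bp (5674 pairs). Over the autosome arms Spearman's rho between neighbours' scores was 0.092 within runs, 0.062 at gaps over 1000 and up to 5000 bp and 0.070 beyond that. On X it was 0.171 within runs (223 pairs), 0.072 (1096 pairs) and 0.036 (1124 pairs). Lengths of neighbours were nearly unrelated within runs, with a rho of 0.0082. Neighbours share library and local read coverage, so these are descriptions.

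Arrays were unevenly spaced themselves. The median distance from one run to the next on its arm was 58645 bp, and 117 of 855 such distances (13.7%) were 10 kb or less. The longest was 1803 kb, on 2L between 20904344-20909016 and 22711644-22718132. The latter, the last run before the centromere of 2L, was one of the runs whose mean score rests on 1 short cluster. None of its clusters overlapped a replicate, as in 28.7% of all runs.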
